A study of Nematostella vectensis with 4 samples.

Results

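In the cells of *Nematostella vectensis* gastrulae, 100 genes stood highest above other cells in both the *NvLWamide*+ neurons and the *Nvncol1*+ cnidocytes, and this list held gene groups of unlike behaviour. The list was the first 100 of 8042 genes that could be ranked, among 24526 genes in the count tables. A gene could be ranked when at least 50 UMIs (unique molecular identifiers, 1 per captured transcript) were counted in each of both classes, and the marker genes that the study uses to name cell types were left out. The exception was the cnidocyte marker *NvNgal*, whose ID matched no gene in the count tables. NV2g005200000.1, whose ID differs from it in 1 digit, is a member at rank 29, and whether it is the same gene cannot be told from the files. *NvLWamide* cells were barcodes with at least 3 *NvLWamide* UMIs and no *Nvncol1* UMI, and *Nvncol1* cells were barcodes with at least 2 *Nvncol1* UMIs and no *NvLWamide* UMI. Reference cells had neither, no *NvashA* or *Nvelav* UMI, and *Nvncol3* under 500 CPM (counts per 1000000 UMIs). UMIs were pooled over the cells of a class, and genes were ordered by the smaller of the 2 ratios to the reference, each taken as (CPM + 1)/(CPM + 1). The ratios that chose the genes are therefore given as a description, with no test.

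Neurons and cnidocytes, the stinging cells of cnidarians, are both post-mitotic products of a shared progenitor pool in this sea anemone. Neurons make neuropeptides such as LWamides and use RNA-binding proteins of the Elav family, and *NvashA* is an achaete-scute transcription factor of the neural lineage. Cnidocytes build the nematocyst, a pressurized capsule whose wall is made of minicollagens such as *Nvncol1* and *Nvncol3*. Gland cells are secretory cells marked here by *Nvmucin*, *Nvwnt2* marks trunk ectoderm, and *Nvath-like*, *Nvmyc1* and *Nvnanos* mark progenitors.

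The cells came from a single pool of whole gastrulae, 24 h after fertilization, from which 4 libraries were made as technical replicates with the droplet method of 10x Genomics. There was no treatment and no second condition, so every comparison is between classes of cells within the same libraries. The libraries held 2686 to 8523 barcodes and 22980631 to 56880930 UMIs, and 16089 of 18779 barcodes had the 500 genes required. In all, 38 barcode sequences occurred in more than 1 library, and 28 of them did so among barcodes with 500 genes. The 38 included the sequences of 3 *NvLWamide* cells and 1 *Nvncol1* cell.

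There were 548 *NvLWamide* cells (106, 72, 65 and 305 in replicates 1 to 4, median 5401.5 UMIs), 281 *Nvncol1* cells (67, 48, 35 and 131, median 12629 UMIs) and 10175 reference cells (median 3983 UMIs). Pooled *Nvelav* was 202 CPM in *NvLWamide* cells and 9.63 CPM in *Nvncol1* cells, and *NvashA* was 326 and 52.7 CPM. *Nvncol3* was 10407 CPM in *Nvncol1* cells, but it was also 785 CPM in *NvLWamide* cells, against 47.1 CPM in reference cells. Its level in *NvLWamide* cells was 495, 385, 941 and 1030 CPM in replicates 1 to 4. Of the 548 *NvLWamide* cells, 286 had no *Nvncol3* UMI and 120 had 500 CPM or more, and 26 of these 120 reached that level with 1 UMI. The list, its share of UMIs and the comparison with *Nvncol1* cells are for this reason also given without these cells. The gene IDs have no names in the sources used here, so members are given by ID and their functions are not stated.

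The 100 members stood far less above the reference in *NvLWamide* cells than in *Nvncol1* cells. The ratio in *NvLWamide* cells ran from 5.10 to 41.0 with a median of 6.74, and in *Nvncol1* cells from 5.37 to 474 with a median of 85.6. It was the smaller of both ratios for 90 members, so the *NvLWamide* cells set most of the order. The level in *Nvncol1* cells was at least 10-fold that in *NvLWamide* cells for 56 members, both levels lay within 3-fold of each other for 25, and *NvLWamide* cells had the higher level for 10. The most abundant member, NV2g011815000.1 at rank 26, had pooled levels of 833 CPM in *NvLWamide* cells, 26904 CPM in *Nvncol1* cells and 99.8 CPM in reference cells.

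**Figure D1:**
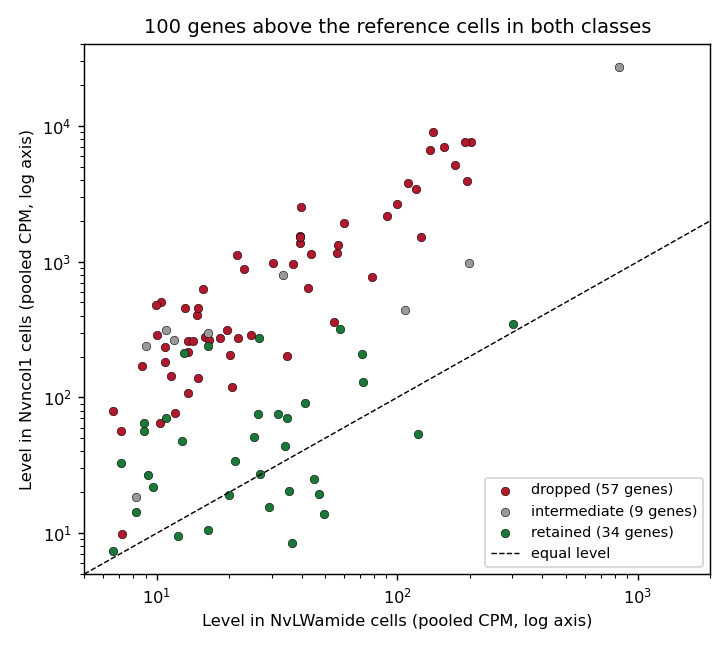
Pooled level of each of the 100 members in *NvLWamide* cells (horizontal, CPM, log axis) and in *Nvncol1* cells (vertical, CPM, log axis), with 1 point per gene and a dashed line of equal level. The 57 genes called dropped lie above the line, with a median *Nvncol1* level 21.6-fold that in *NvLWamide* cells, and the 34 called retained lie nearer to it, with a median of 1.90-fold. Retained, intermediate and dropped are defined by *NvLWamide* cells without *Nvncol3*.

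The edge of the list was shallow. The last members, NV2g019727000.1 at rank 99 and NV2g006786000.1 at rank 100, had smaller ratios of 5.104 and 5.097. The first genes outside, NV2g010927000.1 and NV2g018052000.1, had 5.087 and 5.064. When the list was rebuilt from 3 libraries and read in the library left out, the smaller ratio was 2 or more for 97, 94, 83 and 92 of 100 genes in replicates 1 to 4, against 3.04%, 3.14%, 2.84% and 2.87% of all genes ranked. The median smaller ratio of these lists in the library left out was 5.57, 5.54, 6.41 and 6.06. These libraries are technical replicates of 1 pool, so this shows repeatability of the measurement and not of the embryos.

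Together the members made up 0.493% ± 0.111 of the UMIs of *NvLWamide* cells, 13.4% ± 2.94 of those of *Nvncol1* cells and 0.0567% ± 0.0103 of those of reference cells (SD, n = 4 libraries). In *NvLWamide* cells the share was 0.505%, 0.397%, 0.425% and 0.644% in replicates 1 to 4. Of these UMIs, 71.4% came from the 120 cells with high *Nvncol3*, which were 21.9% of the cells and held 24.5% of all UMIs of the class. By library the part from high-*Nvncol3* cells was 59.6%, 57.2%, 69.3% and 80.9%, and replicate 4 also had the largest share of such cells, 30.2%, against 9.23% to 15.3% in the others. Without the high-*Nvncol3* cells the members made up 0.197% ± 0.0299 of the UMIs of *NvLWamide* cells (SD, n = 4), which was still above the reference in each library.

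The list was then split by the ratio of each gene in the 286 *NvLWamide* cells without an *Nvncol3* UMI, a split chosen after the values were seen. In these cells 34 members were at least 5-fold above the reference (retained), 9 were between 2- and 5-fold (intermediate) and 57 were under 2-fold (dropped). A retained gene rested on 11 to 915 UMIs there (median 89), an intermediate gene on 5 to 476 and a dropped gene on 1 to 41. The retained genes had a median ratio of 17.1 in cells without *Nvncol3*, 5.45 in cells with *Nvncol3* under 500 CPM and 7.34 in cells at or above it. For the dropped genes these medians were 1.00, 1.21 and 22.7. The split used the first of these groups and the rule asked for a high ratio in the class as a whole, which together fix that dropped genes be high in the other *NvLWamide* cells, so these medians describe the split and are no separate result. The cells in between were the deepest, with a median of 12596 UMIs against 3857.5 without *Nvncol3* and 4758.5 at high *Nvncol3*.

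**Figure D2:**
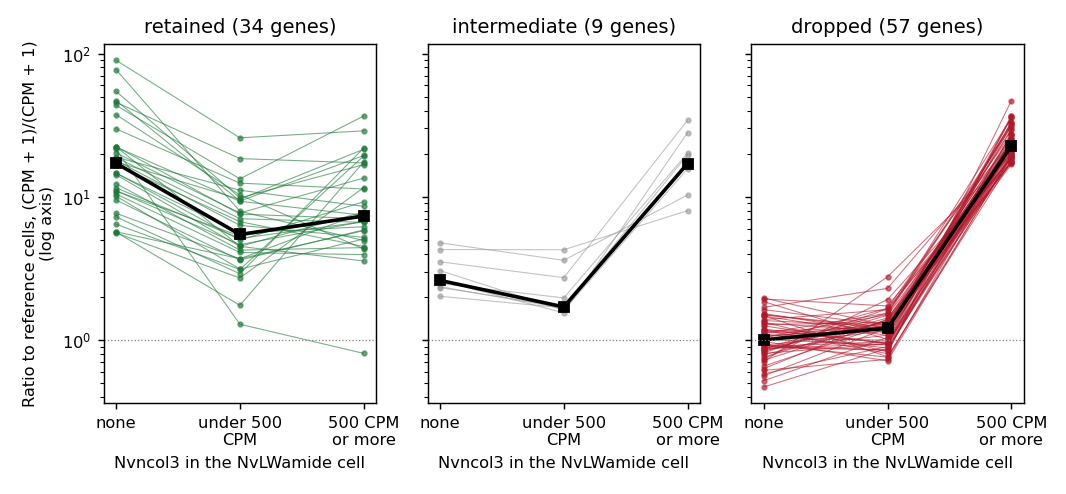
Ratio to reference cells (vertical, log axis) of each member in *NvLWamide* cells with no *Nvncol3* UMI (286 cells), with *Nvncol3* under 500 CPM (142 cells) and with 500 CPM or more (120 cells). Thin lines are single genes and black squares the medians. The dropped genes stay near a ratio of 1 until the last group, where their median is 22.7, and the median of the retained genes is highest in the first group, at 17.1. The values of the first group made the split.

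The *NvLWamide* cells with high *Nvncol3* carried markers of both lineages at reduced levels. Pooled *Nvncol3* was 3012 CPM in them, 28.9% of its level in *Nvncol1* cells, and the dropped genes were there at a median of 16.9% of their level in *Nvncol1* cells (quartiles 10.2% and 29.9%). The *NvLWamide* level of the cells with high *Nvncol3* was 652 CPM against 3294 CPM in cells without *Nvncol3*. Their *Nvelav* was 91.9 against 428 CPM and their *NvashA* 159 against 653 CPM. Lower neuronal markers were not particular to them. In the deeper cells with *Nvncol3* under 500 CPM these 3 levels were 966, 157 and 263 CPM. A threshold of 3 *NvLWamide* UMIs also admits deep cells at a low CPM. Barcodes with at least 1 UMI of *NvLWamide* and of *Nvncol1* were in no group of the rule. These 48 barcodes had a median of 57247.5 UMIs, and the members made up 3.28% ± 0.942 of their UMIs (SD, n = 4). No doublet caller was run, and the part of barcodes that hold 2 cells in these values was not tested.

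Leaving out the cells with high *Nvncol3* and ranking again gave a list that shared 33 of its 100 genes with the original, among them 9 of the first 10. With no *NvLWamide* cell that held an *Nvncol3* UMI, 26 of 100 were shared, and again 9 of the first 10. These 26 held 23 of the 34 retained genes.

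The genes of rank 1 to 10 were retained genes in 9 of 10 cases. In the first of them, NV2g004020000.1, the level in *NvLWamide* cells was 18.7, 16.4, 26.0 and 34.8 CPM in replicates 1 to 4, that in *Nvncol1* cells was 96.9, 87.0, 107 and 54.4 CPM, and that in reference cells was 0.374, 0.137, 0.253 and 0.272 CPM. The *NvLWamide* cells without *Nvncol3* had 46.3, 35.7, 76.0 and 96.5 CPM, so this gene did not rest on the high-*Nvncol3* cells. In cells brought down to 1000 UMIs by random thinning, 4.62% of *NvLWamide* cells and 13.2% of *Nvncol1* cells held a UMI of it, against 0.0224% of reference cells. Without thinning the shares were 11.3%, 47.3% and 0.187%.

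NV2g008418000.1, at rank 6, had the largest ratio of any member in *NvLWamide* cells. It was at 59.996, 72.4, 45.6 and 37.5 CPM there in replicates 1 to 4, at 8.76, 17.9, 29.9 and 13.1 CPM in *Nvncol1* cells, and at 0.187 to 0.275 CPM in reference cells. Its *NvLWamide* and *Nvncol1* libraries did not overlap. In *NvLWamide* cells without *Nvncol3* it reached 179, 126, 55.0 and 79.1 CPM. NV2g021939000.1, at rank 10, was likewise higher in *NvLWamide* cells, at 36.6, 51.5, 52.7 and 51.5 CPM against 32.6, 9.54, 7.03 and 16.1 CPM in *Nvncol1* cells.

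Other genes of the first 10 had pooled levels in both classes that lay within about 2-fold of each other. NV2g013946000.1 at rank 3 was at 35.5 CPM in *NvLWamide* cells and 20.6 CPM in *Nvncol1* cells. NV2g000951000.1 at rank 7 was at 34.0 and 43.9 CPM, and NV2g002426000.1 at rank 8 was at 19.9 and 19.3 CPM. NV2g010662000.1 at rank 9 was at 29.2 and 15.7 CPM, but its *NvLWamide* libraries ran from 7.02 to 40.0 CPM. NV2g011584000.1 at rank 2 was at 25.3 and 51.4 CPM, with 82.6, 51.9, 78.6 and 49.0 CPM in replicates 1 to 4 of *NvLWamide* cells without *Nvncol3*.

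The other members of the first 10 were much higher in *Nvncol1* cells. NV2g020492000.1 at rank 4 was at 37.0, 19.7, 14.7 and 26.5 CPM in *NvLWamide* cells and at 272, 336, 271 and 256 CPM in *Nvncol1* cells, and it was also above the reference in *NvLWamide* cells without *Nvncol3* (54.4, 19.4, 15.7 and 33.2 CPM). NV2g004235000.1 at rank 5 was the only dropped gene of the first 10. It had 6.04, 3.24, 5.24 and 9.49 CPM in *NvLWamide* cells without *Nvncol3*, against 4.31 to 5.94 CPM in the reference, but 452, 703, 562 and 170 CPM in those with high *Nvncol3* and 957, 1036, 723 and 582 CPM in *Nvncol1* cells.

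**Figure D3:**
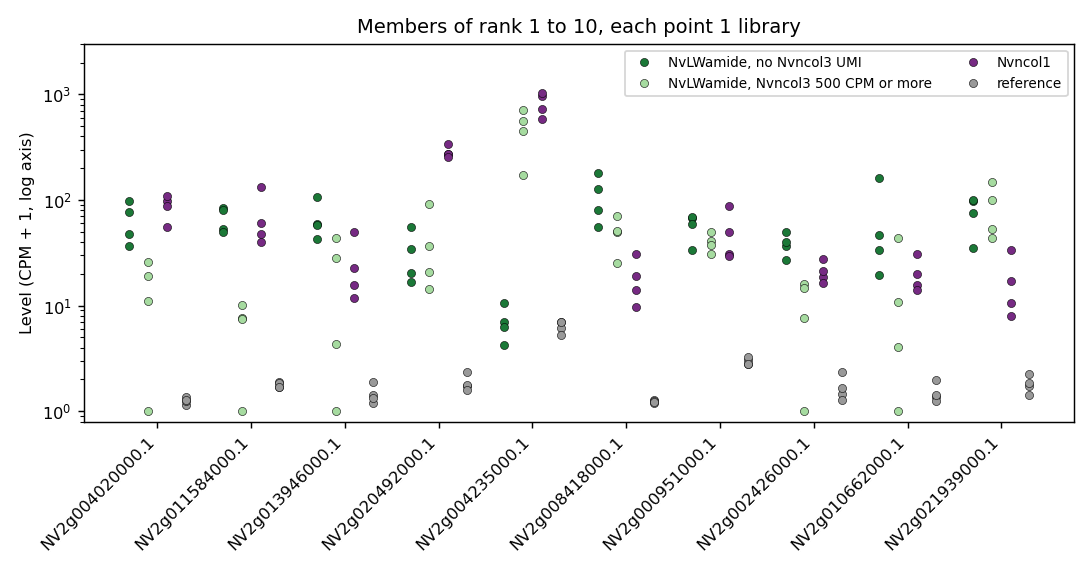
Level of the members of rank 1 to 10 (vertical, CPM + 1, log axis) in 4 groups of cells, with 1 point per library. In 9 of the 10 genes the *NvLWamide* cells without *Nvncol3* lie above all reference points, and NV2g004235000.1 is the exception, with its high points in the *Nvncol1* cells and in the *NvLWamide* cells of high *Nvncol3*.

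Retention did not mean support from every library. NV2g000117000.1, a retained gene at rank 72 named here after its values were seen, had 20.1, 6.48, 13.1 and 334 CPM in *NvLWamide* cells without *Nvncol3*, and so rested largely on replicate 4. The most abundant retained gene, NV2g003783000.1 at rank 43, was even across libraries, with 465, 499.1, 558 and 502 CPM in *NvLWamide* cells without *Nvncol3*, 293, 350, 376 and 373 CPM in *Nvncol1* cells and 36.7 to 47.5 CPM in reference cells.

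Barcodes with at least 300 but under 500 genes were in no group of the rule, nor in the split, and gave a reading apart from both. Among them were 118 barcodes with at least 1 *NvLWamide* UMI and no *Nvncol1* or *Nvncol3* UMI, a looser threshold than that of the rule. They were compared with 1486 barcodes of the same size made up as the reference. The retained genes summed to 1994, 3182, 2078 and 2933 CPM in the former and to 519, 635, 436 and 621 CPM in the latter, so every *NvLWamide* library lay above every reference library. The dropped genes summed to 2719, 1000, 1351 and 2361 CPM against 2551, 1803, 2213 and 3762 CPM, and the groups overlapped. Gene by gene, 27 of 34 retained and 6 of 57 dropped genes were at least 2-fold higher in these *NvLWamide* barcodes, against 8.34% of all ranked genes. These counts rest on only 206 and 164 UMIs in all. In this class 1 UMI amounts to 12.9 CPM, and in small barcodes with *Nvncol1* to 20.3 CPM. For a rare gene the count is thus close to a count of detection, and all ranked genes are not matched to the members in level. In 70 small barcodes with *Nvncol1*, 26 of 34 retained genes and 55 of 57 dropped genes were at least 2-fold above the same reference, against 9.30% of all ranked genes.

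Cells with 1 or 2 *NvLWamide* UMIs and no *Nvncol1* or *Nvncol3* UMI were also outside the rule (358 cells, median 3008.5 UMIs). Their *Nvelav* was 44.5 CPM, lower than the 428 CPM of the *NvLWamide* cells without *Nvncol3*. The retained genes summed to 279, 388, 313 and 371 CPM in replicates 1 to 4, above the 95.8 to 121 CPM of reference cells, and 23 of 34 were at least 2-fold higher. For the dropped genes this held for 0 of 57, and for all ranked genes for 1.23%. The reference here is the one in which the rule asked for a low level.

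The level of the members was next set side by side in *NvLWamide* and *Nvncol1* cells. UMIs were summed per library and class and fitted across all genes with edgeR. The rule chose the members on the counts of these same cells, so the fitted log2 fold changes are a description and no test is given. Their median over the members was -4.23, that is lower in *NvLWamide* cells, where the median over all genes was 0.06. With total UMIs in place of the TMM factors of edgeR these medians were -3.76 and 0.45. Without the *NvLWamide* cells of high *Nvncol3* the median over the members was -6.91, and without any that held *Nvncol3* it was -6.81.

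Among the members with more in *NvLWamide* cells, NV2g008418000.1 had a log2 fold change of 1.40 ± 0.38 (SE) and NV2g021939000.1 one of 1.00 ± 0.34. Both had the higher level in *NvLWamide* cells in 4 of 4 libraries.

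The lowest log2 fold changes belonged to NV2g005192000.1 and NV2g011723000.1, both dropped genes. NV2g005192000.1 was at 9625, 10349, 15801 and 7184 CPM in *Nvncol1* cells and at 43.4, 11.0, 7.72 and 299 CPM in *NvLWamide* cells, a log2 fold change of -7.35 ± 1.08. Its value in replicate 4 of the *NvLWamide* cells stood apart, and there the *NvLWamide* cells of high *Nvncol3* had 798 CPM. NV2g011723000.1 was at 2280, 3291, 4020 and 2185 CPM and at 23.0, 13.2, 7.02 and 72.6 CPM, a log2 fold change of -7.05 ± 0.66.

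Cells with *Nvncol3* of 500 CPM or more but no *Nvncol1*, *NvLWamide*, *NvashA* or *Nvelav* UMI were in no group of the rule (2545 cells, median 1549 UMIs), and are called high-*Nvncol3* cells from here on. The members made up 6.05% ± 1.37 of their UMIs (SD, n = 4). These cells were not uniform. Per cell the median share was 0.936% (quartiles 0.249% and 7.28%), against a median of 19.1% in *Nvncol1* cells. At their median depth 1 *Nvncol3* UMI was enough to pass 500 CPM. The high-*Nvncol3* cells were compared with the 2034 *Nvwnt2* cells (at least 2 *Nvwnt2* UMIs, median 8068.5 UMIs). The *Nvwnt2* cells held 30.6% of the UMIs of the reference, whose low level the rule required, so a member could hardly have been high in them. This holds for each comparison with *Nvwnt2* cells below, where the share of all genes called is printed beside the members' count and nothing is read from the difference between them.

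UMIs were summed per library and class and tested across all genes with the quasi-likelihood test of edgeR, with a call at a Benjamini-Hochberg adjusted p under 0.05. In this test 94 of 94 members tested were higher in high-*Nvncol3* cells, where 24.6% of all 13111 genes tested were, and without a filter on low counts 99 of 100 were, against 15.4%. Total UMIs in place of TMM factors moved the median log2 fold change of all genes from 0.02 to -0.25 and kept 94 members called. The largest changes were in NV2g011823000.1, at 166, 153, 195 and 100.9 CPM against 0.229 to 0.372 CPM (log2 fold change 9.11 ± 0.38, adjusted p 7.25e-09 by edgeR), and in NV2g015739000.1, at 272, 250, 209 and 156 CPM against 0.291 to 0.941 CPM (9.05 ± 0.37, adjusted p 6.92e-09). Both are dropped genes.

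The smallest changes in high-*Nvncol3* cells were in retained genes. NV2g013532000.1 was at 34.8, 38.0, 39.0 and 25.5 CPM against 4.08 to 5.94 CPM (2.93 ± 0.24, adjusted p 1.28e-06), and NV2g025218000.1 at 13.9, 24.3, 14.8 and 12.2 CPM against 0.914 to 3.20 CPM (3.10 ± 0.39, adjusted p 5.45e-05, both by edgeR). Of the 34 retained genes 28 were called higher in these cells, and the other 6 did not pass the filter on low counts. By definition these cells held no UMI of the 3 neuronal markers. At their median depth of 1549 UMIs a marker that is present can be missed.

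Some genes of the first 10 were much lower in high-*Nvncol3* cells than in *Nvncol1* cells. NV2g004020000.1 was at 9.28, 11.4, 12.1 and 6.20 CPM there, below all its *Nvncol1* libraries, and still higher than in *Nvwnt2* cells (log2 fold change 5.74 ± 0.54, adjusted p 4.51e-06 by edgeR). NV2g021939000.1 stood the other way, at 135, 135, 132 and 84.3 CPM against 7.03 to 32.6 CPM in *Nvncol1* cells. The difference between these classes was not tested.

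*NvashA* cells without *NvLWamide*, *Nvelav* or *Nvncol1* and with *Nvncol3* under 500 CPM (191 cells, median 5491 UMIs) were outside the rule as well. The members made up 0.0887%, 0.0872%, 0.0810% and 0.170% of their UMIs in replicates 1 to 4, against 0.0336% to 0.0474% in *Nvwnt2* cells. Of 29 members that passed the filter on low counts, 11 were higher than in *Nvwnt2* cells, where 8.07% of all genes tested were, and 0 were lower, against 5.52%. The low level in *Nvwnt2* cells that the rule asked for left members little room to be lower in *NvashA* cells. A member can pass the filter only because it is high in 1 of the classes, so the counts without the filter are given too. At an unadjusted p under 0.05 there were 19 members in either direction. DESeq2 called 9 higher and 0 lower. Without the filter 31 of 100 members were higher against 5.6% of all genes, and in a fit of all classes together 23 of 97 against 9.72%.

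The retained genes summed to 257, 470, 329 and 260 CPM in *NvashA* cells and to 53.5 to 70.8 CPM in *Nvwnt2* cells, without overlap. In *NvashA* cells without any *Nvncol3* UMI they summed to 424, 446, 518 and 280 CPM, against 41.1 to 65.8 CPM in *Nvwnt2* cells chosen in the same way, and 23 of 34 were at least 2-fold higher, against 8.22% of all ranked genes. The dropped genes summed to 416, 139, 328 and 839 CPM in the same *NvashA* cells and to 177 to 255 CPM in those *Nvwnt2* cells, and the groups overlapped. Of the dropped genes 26 of 57 were at least 2-fold higher there too. Replicate 4 was the highest of the *NvashA* libraries in this sum.

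NV2g009032000.1, a retained gene, had the largest change. It was at 27.8, 40.7, 29.7 and 18.4 CPM in *NvashA* cells and at 1.16, 0.457, 0.941 and 0.992 CPM in *Nvwnt2* cells, a log2 fold change of 4.81 ± 0.36 with an adjusted p of 2.01e-05 by edgeR. NV2g018856000.1 was at 36.2, 54.2, 14.8 and 19.5 CPM against 0.728, 0.229, 0.628 and 1.98 CPM (4.77 ± 0.51, adjusted p 0.000142). Both had levels in *NvashA* cells near those in *Nvncol1* cells, which were 28.6 to 54.5 CPM and 20.3 to 29.9 CPM. NV2g007058000.1 and NV2g021207000.1 were the other retained genes with a log2 fold change over 3, at 4.65 ± 0.34 and 3.42 ± 0.39 (adjusted p 1.82e-05 and 2e-04).

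The smallest changes that went the same way in 4 of 4 libraries were in NV2g010282000.1 (1.56 ± 0.44, adjusted p 0.0367 by edgeR) and NV2g003783000.1 (1.67 ± 0.27, adjusted p 0.00176). NV2g010282000.1 rested on 14 UMIs in *NvashA* cells, and its adjusted p was 0.0665 with the library as a block and 0.175, 0.0989 and 0.109 without replicate 1, 2 or 4. Of the dropped genes called, NV2g005192000.1 (16.7, 4.52, 11.9 and 118 CPM against 9.14 to 15.7 CPM) and NV2g011721000.1 were higher in 2 of 4 libraries only. Leaving out each library in turn gave 8 to 12 calls.

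**Figure D4:**
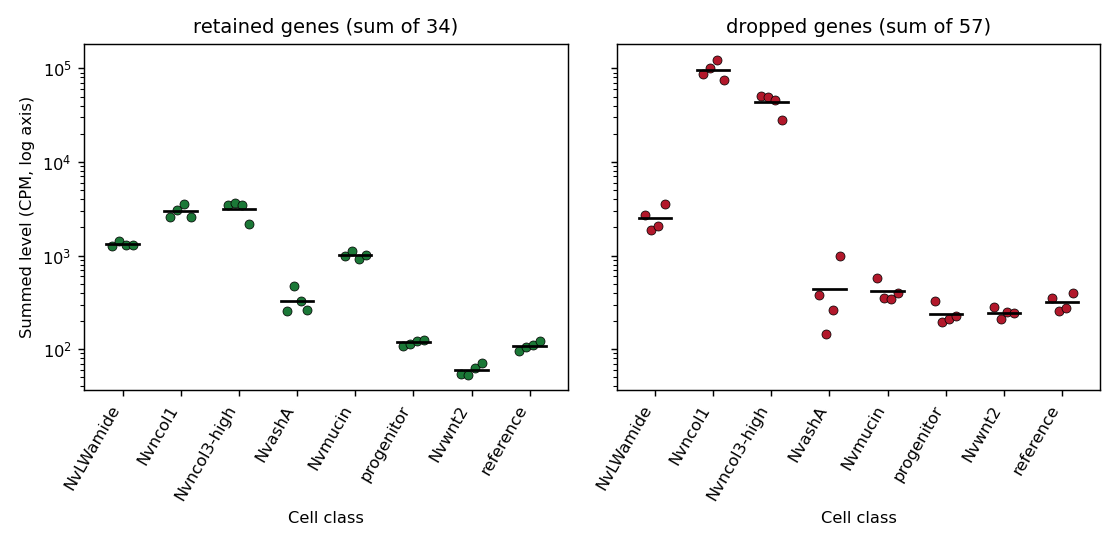
Summed level of the 34 retained genes and of the 57 dropped genes (vertical, CPM, log axis) in 8 classes of cells, with 1 point per library and a bar at the mean. The retained genes reach a like sum in *Nvncol1* and high-*Nvncol3* cells. Their sum is also high in *NvLWamide* and *Nvmucin* cells, though 7 of the 34 had no UMI in *Nvmucin* cells. The dropped genes stand far higher in the *Nvncol3*+ classes than in any other.

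*Nvmucin* cells (at least 3 *Nvmucin* UMIs, 208 cells, median 3007.5 UMIs) were part of the reference, but held only 1.48% of its UMIs, so the rule bore little on them. The retained genes summed to 995, 1119, 920 and 1016 CPM in replicates 1 to 4. The 4 libraries lay above all *NvashA*, progenitor and *Nvwnt2* libraries and below all *NvLWamide* libraries (1272 to 1415 CPM). This sum was uneven over genes. Of the 34 retained genes 20 were at least 2-fold above *Nvwnt2* cells, against 11.7% of all ranked genes, and 7 had 0 UMIs. Without thinning a retained gene was seen in a median of 0.962% of *Nvmucin* cells. The dropped genes summed to 575, 354, 342 and 401 CPM, against 253 to 395 CPM in reference cells, and the groups overlapped. Pooled *Nvmucin* was 1822 CPM in these cells, 31.8 CPM in *NvLWamide* cells, 8.00 CPM in *Nvncol1* cells and 33.7 CPM in reference cells, so *Nvmucin* was not above the reference in *NvLWamide* or *Nvncol1* cells as whole classes. In the *NvLWamide* cells without *Nvncol3*, which defined the retained genes, pooled *Nvmucin* was higher, at 57.2 CPM, with 32.2, 6.48, 68.1 and 94.9 CPM in replicates 1 to 4 against 27.4 to 39.7 CPM in reference cells. Its part in the levels of the retained genes was not tested.

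Of 29 members tested, 18 were higher in *Nvmucin* than in *Nvwnt2* cells, where 22% of all genes tested were, and 0 were lower, against 21.3%. Here too the rule left members little room to be lower. At an unadjusted p under 0.05 there were 20 in either direction. DESeq2 called 20 higher and 0 lower. The 18 included 9 of the 34 retained genes, and the other 25 did not pass the filter. Without the filter on low counts 23 of 100 were higher and 1 lower, against 12.5% and 17% of all genes. Total UMIs in place of TMM factors moved the median log2 fold change of all genes from -0.16 to -0.45, changed the calls among all genes from 2372 higher and 2303 lower to 1964 and 3665, and left 15 members higher.

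NV2g023613000.1 had the largest change, at 333, 332, 267 and 277 CPM in *Nvmucin* cells and 0.314 to 1.75 CPM in *Nvwnt2* cells (log2 fold change 8.46 ± 0.24, adjusted p 7.005e-12 by edgeR). These levels were above its 117 to 197 CPM in *Nvncol1* cells and 55.0 to 94.3 CPM in *NvLWamide* cells. NV2g000951000.1 was at 57.9, 65.6, 37.5 and 58.3 CPM against 0.229 to 0.437 CPM (7.58 ± 0.38, adjusted p 1.39e-09). NV2g007058000.1 was at 134, 117, 161 and 87.4 CPM against 1.14 to 2.11 CPM (6.56 ± 0.26, adjusted p 1.2e-10). Its *Nvmucin* libraries overlapped those of its *NvLWamide* cells, at 110 to 160 CPM.

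The smallest changes that went the same way in 4 of 4 libraries were in NV2g011815000.1 (1.18 ± 0.29, adjusted p 0.00441 by edgeR) and in NV2g020491000.1 (1.27 ± 0.44, adjusted p 0.0421). NV2g018311000.1, called at a log2 fold change of 1.02 ± 0.35 (adjusted p 0.0318 by edgeR), was higher in 3 of 4 libraries only. NV2g020491000.1 rested on 10 UMIs in *Nvmucin* cells. It lost its call with the library as a block (0.077), with total UMIs (0.102) and without each replicate in turn (0.0610 to 0.15). Other members of the first 10 were absent from *Nvmucin* cells at this depth. NV2g004020000.1, NV2g011584000.1, NV2g008418000.1 and NV2g010662000.1 each had 0 UMIs among 1091551, which allows up to 2.75 CPM.

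Progenitor cells (2 or more of *Nvath-like*, *Nvmyc1* and *Nvnanos*, 298 cells, median 7940.5 UMIs) held the members at about the level of the reference. Their share of UMIs was 0.0587% ± 0.0107, against 0.0567% ± 0.0103 in reference cells and 0.0406% ± 0.00566 in *Nvwnt2* cells (SD, n = 4). These cells were part of the reference too, with 5.2% of its UMIs. Of 27 members tested, 6 were higher than in *Nvwnt2* cells, where 13.9% of all genes tested were, and 0 were lower, against 15.3%. At an unadjusted p under 0.05 there were 7 in either direction, and DESeq2 called 6 higher and 0 lower. Without the filter 11 of 100 were higher against 6.18% of all genes, and in a fit of all classes together 12 of 97 against 11.5%.

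The 6 included 1 retained gene, NV2g007058000.1. It was at 20.7, 10.9, 18.5 and 14.4 CPM in progenitor cells and at 1.46, 1.14, 1.26 and 2.11 CPM in *Nvwnt2* cells (log2 fold change 3.35 ± 0.31, adjusted p 1.66e-05 by edgeR). NV2g002652000.1, an intermediate gene, was at 90.1, 54.5, 113 and 56.3 CPM against 7.57, 3.43, 4.08 and 16.3 CPM (3.17 ± 0.40, adjusted p 0.000141). This gene was also at 58.4, 76.8, 62.3 and 43.3 CPM in *NvashA* cells and at 856 to 1546 CPM in high-*Nvncol3* cells. The smallest changes were in 2 dropped genes, NV2g023423000.1 (1.77 ± 0.31, adjusted p 0.0013) and NV2g013045000.1 (1.84 ± 0.35, adjusted p 0.00211).

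Between *NvashA* and progenitor cells, edgeR called 0 of 13 members tested, where 0.438% of all 7760 genes tested were higher in *NvashA* cells and 0.18% lower. At an unadjusted p under 0.05 there were 8 members. DESeq2 called 2 members higher, the fit that blocks by library 3, a fit of all classes together 6 of 97 (1.24% of all genes), and the fit with no filter 18 of 100 (1.67% of all genes). The largest difference among the named genes was in NV2g018856000.1, with a log2 fold change of 1.79 ± 0.47 and an adjusted p of 0.134.

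**Figure D5:**
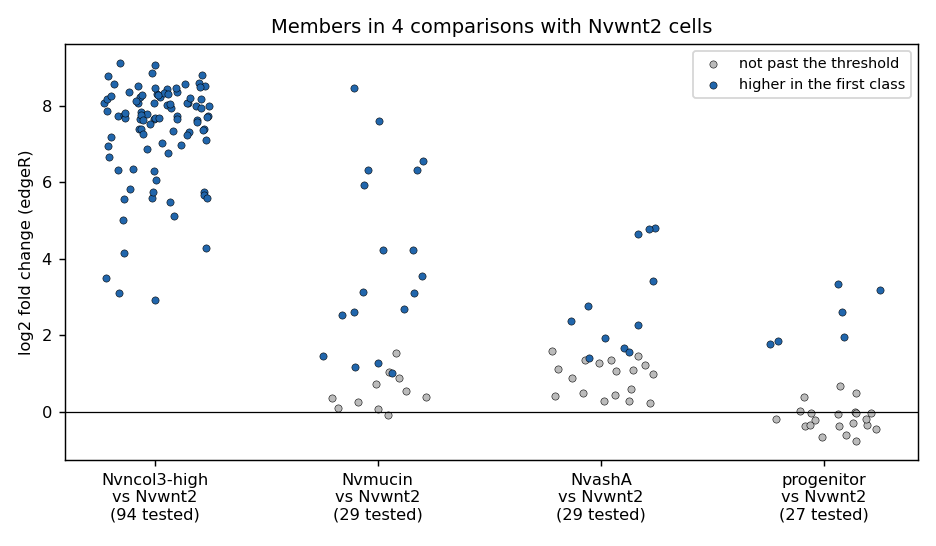
Log2 fold change by edgeR (vertical) of each member that passed the filter on low counts in 4 comparisons with *Nvwnt2* cells, with 1 point per gene, spread sideways for legibility. Blue marks members higher in the class named first, and grey those not past an adjusted p of 0.05. In all, 94 of 94 members were higher in high-*Nvncol3* cells, 18 of 29 in *Nvmucin* cells, 11 of 29 in *NvashA* cells and 6 of 27 in progenitor cells.

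Detection per cell was compared at equal depth. All cells were cut at random to 1000 UMIs, a depth that 528 of 2545 high-*Nvncol3* cells, 29 of 548 *NvLWamide* cells, 1 *Nvncol1* cell, 37 of 2034 *Nvwnt2* cells and 1248 reference cells did not reach and so were left out. In the thinned cells a retained gene was seen in a median of 4.05% of *NvLWamide* cells, 5.71% of *Nvncol1* cells, 3.15% of high-*Nvncol3* cells and 0.0501% of *Nvwnt2* cells. The medians without thinning were 17.5%, 34.3%, 7.03% and 0.590%. The summed level of the retained genes had another order, with means of 1316 CPM in *NvLWamide*, 2960 CPM in *Nvncol1* and 3181 CPM in high-*Nvncol3* cells. A dropped gene was seen in a median of 1.73% of thinned *NvLWamide* cells, 42.5% of *Nvncol1* cells, 18.3% of high-*Nvncol3* cells and 0.250% of *Nvwnt2* cells. The unthinned medians of the latter were 9.49%, 80.8%, 26.7% and 2.06%. *Nvwnt2* cells were part of the reference in which the rule asked for a low level, so their shares are no measured background. *Nvwnt2* UMIs were also found in 31.2% of *NvLWamide* cells and 24.2% of *Nvncol1* cells. The part of free RNA in these shares was not tested. In *NvashA*, progenitor and *Nvmucin* cells the median dropped gene was seen in 0.549%, 0.342% and 0.508% of thinned cells (3.66%, 3.02% and 1.44% without thinning). Each of these thinned medians is the share that 1 cell makes, and all lay above the 0.250% of *Nvwnt2* cells.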

How the data were processed

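Single-cell 3′ libraries of 1 pool of gastrulae were read as the raw UMI counts that the authors deposited, 1 matrix per library, with gene IDs and barcodes in text lists in the same order, which were read as other (text) columns as deposited. The authors aligned reads to introns and exons with Cell Ranger, whose version is 6.1.2 in the file headers and 7.1.1 in the submitters' processing notes. For the genome build, nothing is given in these sources. The RefSeq table matched 0 of 24526 IDs, so no gene names and no sequences were printed.

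Barcodes needed 500 genes. Doublets were not removed. *NvNgal* was not used, since its ID matched no gene. UMIs were summed per library and class and tested in R 4.3.3 with edgeR 4.0.16, by its quasi-likelihood test (TMM factors, filterByExpr, Benjamini-Hochberg adjustment over all genes tested, calls at 0.05). Standard errors are the absolute log2 fold change over the square root of F. For *NvLWamide* against *Nvncol1* cells the planned test rests on counts that chose the members, so only its log2 fold changes are given. The test was tried on simulated data for each comparison. DESeq2 1.42.0 was an alternative, as were total UMIs, no filter on low counts, all classes in 1 fit, the library as a block, each library left out, a mitochondrial limit of 10%, stricter marker thresholds and barcodes of 1000 to 10000 UMIs. Thinning used numpy 2.4.6 and pandas 2.3.3 in Python 3.11.15, and figures used matplotlib 3.10.9.

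Genes named are those of rank 1 to 10 and 99 to 100, the next genes after the list and, per comparison, the 2 called members with the highest and the 2 with the lowest log2 fold change whose direction was shared by 4 of 4 libraries. Others are named after their values were seen. The members and lists were chosen with earlier results of these data known. Libraries are technical replicates, so SDs and p-values measure the spread between libraries of 1 pool. Limits on a count of 0 rest on 3 counts and cover counting error only. Both sums of a comparison come from the same library, so the replicate number makes pairs of them. Deviations of such pairs from the class means correlated at 0.32, 0.16, 0.0405 and 0.161 in replicates 1 to 4 for *NvLWamide* against *Nvncol1* cells, and at 0.0349 to 0.444 over the other comparisons.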

Additional observations from a re-analysis of the deposited data

Results flagged for a closer look

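Among 41 groups of 4 libraries examined for a value far from the others, 3 stood out, and chance sets apart about 1 group in 20. The members' share of UMIs in *NvashA* cells was 0.170% in replicate 4, against 0.0810% to 0.0887% in the other libraries. Their share in *NvLWamide* cells with *Nvncol3* under 500 CPM was 0.200% in replicate 1, against 0.122% to 0.135%. The level of NV2g021939000.1 in *NvLWamide* cells was 36.6 CPM in replicate 1, against 51.5 to 52.7 CPM.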

How the results depend on the processing

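The composition of the list depended on the cells taken as neurons and on the pseudocount. Of the 100 members, 64 remained with a pseudocount of 10. With barcodes of 1000 to 10000 UMIs, where only 817 genes could be ranked, 22 remained. Without *NvLWamide* cells of high *Nvncol3* 33 remained. Without any that held *Nvncol3*, where only 4074 genes could be ranked, 26 remained. With 1 library left out 69 to 94 remained. The fewest, 69, remained without replicate 4. The counts of members called in *NvashA* against *Nvwnt2* cells were 11, but 31 with no filter on low counts and 23 with all classes in 1 fit. In progenitor against *Nvwnt2* cells they were 6, but 11 and 12 in these fits, and 3 both with stricter thresholds and with 1000 to 10000 UMIs. In *NvashA* against progenitor cells they were 0, but 18 and 6 in these fits, 2 with DESeq2, 1 with 1000 to 10000 UMIs and 3 with the library as a replicate block. The block moved no other count of calls by over 1.5 times. Among the genes named in these comparisons it ended the calls of NV2g010282000.1 and NV2g020491000.1.

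With barcodes of 1000 to 10000 UMIs the members' share was 21.0% in *Nvncol1*, 0.0821% in reference, 0.173% in *NvashA*, 0.0912% in progenitor, 0.229% in *Nvmucin* and 0.0532% in *Nvwnt2* cells. With stricter thresholds it was 0.233% in *Nvmucin* cells, and without high-*Nvncol3* cells 0.197% in *NvLWamide* cells. With 1 library left out the share was 0.443% to 0.525% in *NvLWamide*, 12.1% to 14.3% in *Nvncol1*, 0.0530% to 0.0604% in reference, 0.0856% to 0.115% in *NvashA*, 0.0545% to 0.0626% in progenitor, 0.168% to 0.183% in *Nvmucin*, 0.0383% to 0.0429% in *Nvwnt2* and 5.74% to 6.72% in high-*Nvncol3* cells. The counts of calls with 1 library left out were, against *Nvwnt2* cells, 8 to 12 in *NvashA*, 6 to 8 in progenitor, 15 to 19 in *Nvmucin* and 94 to 95 in high-*Nvncol3* cells, with 0 in *NvashA* against progenitor cells. Thinned to 500 UMIs, the mean share of cells with a UMI of a member, averaged over libraries, was 2.17% in *NvLWamide*, 24.98% in *Nvncol1*, 0.521% in reference, 0.847% in *NvashA*, 0.417% in progenitor, 1.02% in *Nvmucin*, 0.252% in *Nvwnt2* and 11.9% in high-*Nvncol3* cells. The cause of these moves was not tested, other than the fewer genes ranked and the fewer UMIs per cell that the settings themselves impose. Of the values for single genes under alternatives, 216 kept their direction and side of the threshold. Another 24 kept their direction but were not past the threshold, and no value reversed. Of the rest, 122 kept their size and 31 moved. *NvashA* and *Nvmucin* cells, with 191 and 208 cells, limit what could be seen there.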
